A study of Mus musculus with 8 samples.

Results

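CpG-poor intergenic tiles far from genes were taken as the autosomal windows of 1000 bp (counted from position 1 of each chromosome, mm10 build) that held 3 to 30 covered cytosine positions, lay wholly 50 kb or more from every protein-coding or lncRNA gene of the RefSeq table, and had 20 or more reads in each of 8 libraries. Of 334414 tiles with a covered position, 43285 autosomal tiles had at least 3 positions and that read minimum, and 2010 of these were distal intergenic tiles as defined here. Distance was measured to the genes of the table used, and "CpG-poor" counts covered cytosines, since the genome sequence was not used here. The level of a tile is the share of its reads, summed over its positions, that called the cytosine methylated.

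The assay was RRBS (reduced representation bisulfite sequencing), in which restriction fragments with CpG-containing ends are sequenced after bisulfite treatment. The cells were I1DN leukaemic progenitors (the labels' name; cKit positive and Cd11b negative) from transplanted mice. All 4 groups carried these cells and were treated for 5 days, with AG120 plus AZA (called the combination), with AG120 alone, with AZA alone, or with Vehicle, and each group had 2 libraries. AG120 is ivosidenib, an inhibitor of mutant IDH1, and AZA is azacitidine, an inhibitor of DNA methyltransferases. The labels give no age or strain of the mice and do not say whether the libraries came from separate animals, so p-values measure the spread between these libraries.

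In mammalian cells most CpGs outside CpG islands are methylated, and maintenance methyltransferase DNMT1 copies the mark to the new strand after replication. DNA far from genes is rich in repeats and is usually methylated, apart from active distal regulatory elements and unmethylated CpG clusters. Azacitidine traps methyltransferases on DNA, so methylation is diluted as cells divide. Mutant IDH1 produces 2-hydroxyglutarate, which inhibits the TET enzymes that oxidise methylcytosine.

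The distal intergenic tiles were sparse places in these libraries. Their median was 11 covered positions at 7 CpG sites (both strands of a site are listed apart), spread over 215 bp of the tile. The median distance to a gene was 110652 bp, and the range was 50042 to 1330084 bp. The number of tiles per chromosome ran from 41 on chromosome 19 to 183 on chromosome 1. No tile lay within 1 kb of a miRNA gene. Before the read minimum there were 24530 such tiles, of which 8.19% passed it, against 10.8% of intergenic tiles 5 to 50 kb from a gene and 10.7% of gene-body tiles 5 kb or more from any gene end. The 2010 tiles are therefore the part of such tiles that all 8 libraries read.

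Libraries held 90373925 to 130796962 CpG calls in all. The share of calls that fell in the distal intergenic tiles was 1.41% and 1.46% in the combination libraries, 1.29% and 1.36% with AG120, 1.18% and 1.141% with AZA, and 1.03% and 0.962% with Vehicle. Every library with AG120 stood above every library without it. The share averaged 1.38% ± 0.0716 with AG120 and 1.08% ± 0.0986 without it (SD, n = 4 each), a difference of 0.304 points (95% interval 0.119 to 0.497; two-sided exact permutation p = 0.0286, the smallest that 4 libraries against 4 can give, and 0.0571 after adjustment over both drugs). The adjusted value missed the 0.05 threshold. The AZA difference was 0.137 points (1.30% with AZA, 1.16% without; exact permutation p = 0.371). The same ordering by AG120 was found in the intergenic tiles nearer to genes, which took 3.91% of calls with AG120 and 3.04% without it, and in gene-body tiles, with 5.19% and 4.01%. The 41275 autosomal tiles that passed the same position and read minimum and were not distal intergenic took 63.1% with AG120 and 70.6% without it. They are called all other autosomal tiles below. This set includes the nearer intergenic and gene-body tiles just given, so the shares overlap. Calls outside the tiles that passed are in none of these shares.

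Each library read only part of the positions of a tile. Of 25672 covered positions in the distal intergenic tiles, 13.5% were read in every library, and these carried 37.8% of the reads. A library read 51.5% and 53.5% of the positions with the combination, 54.3% and 59.6% with AG120, 59.6% and 59.8% with AZA, and 61.6% and 59.0% with Vehicle. Within a tile the median was 5 positions in combination replicate 1 and 6 in each of the other libraries. The levels of one tile in 2 libraries can therefore rest on different cytosines. Where a library had 20 or more reads at a single position, that position stood at exactly 0 or 100% in 82.6% and 81.6% of cases with the combination, 81.4% and 80.2% with AG120, 78.4% and 76.5% with AZA, and 78.0% and 79.8% with Vehicle. At the median of 435 reads per tile and library, a level at the overall mean has a 95% Wilson interval of 75.7 to 83.3%. PCR reads without molecular identifiers are not independent molecules, so such intervals, and the upper limits given below for a count of 0, cover counting error only.

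Distal intergenic DNA was methylated in every group. The mean level over the 2010 tiles was 78.8% and 79.6% in the combination libraries, 78.8% and 82.0% in the AG120 libraries, 79.3% and 78.9% in the AZA libraries, and 79.8% and 81.1% in the Vehicle libraries. The 2 AG120 libraries lay further apart than the means of any 2 groups. Group means were 79.2% ± 0.567 in the combination, 80.4% ± 2.27 in AG120, 79.1% ± 0.256 in AZA and 80.5% ± 0.906 in Vehicle (SD, n = 2 each). The median tile was higher than the mean, between 88.7% (AZA replicate 2) and 93.3% (AG120 replicate 2).

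**Figure D1:**
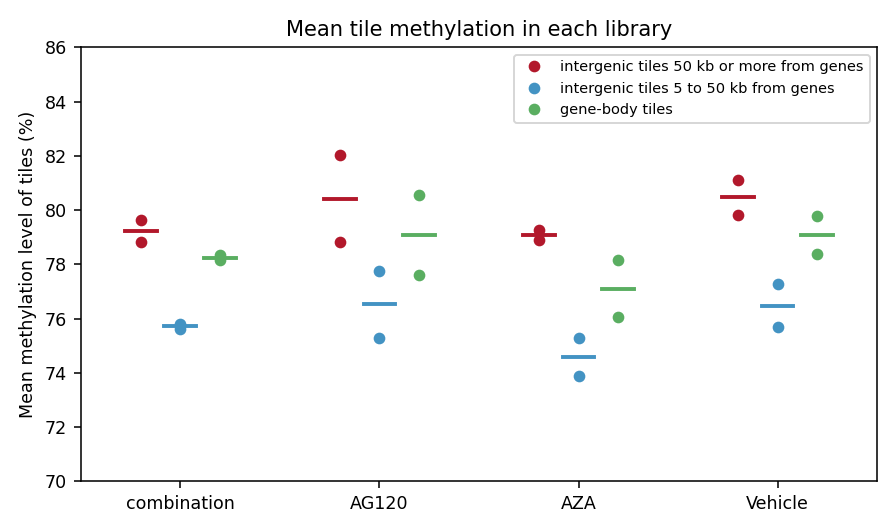
Mean methylation level of tiles (y axis, %, from 70 to 86) in each library of the 4 groups (x axis); each point is a library, each bar the mean of 2 libraries, and colours mark distal intergenic tiles, intergenic tiles 5 to 50 kb from genes and gene-body tiles. The distal tiles lie between 78.8 and 82.0% and are the highest of the 3 classes within each library.

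Azacitidine as a factor, comparing the 4 libraries that received it with the 4 that did not, gave a mean level of 79.2% ± 0.371 with AZA and 80.4% ± 1.41 without it. The difference was -1.29 points (95% interval -3.20 to 0.817; two-sided exact permutation p = 0.171), and the groups overlapped. AG120 as a factor gave 79.8% ± 1.52 with the drug and 79.8% ± 0.973 without it, a difference of 0.0579 points (-2.29 to 3.14; exact permutation p = 1). A loss with AZA of over 3.20 points, or a gain with AG120 of over 3.14 points, lies outside these intervals. Adjusted over both drugs, the values were 0.343 for AZA and 1 for AG120. Without AG120 replicate 1 the AZA difference was -1.84 points and its exact permutation p 0.0286, while with any other single library left out p lay between 0.171 and 0.286.

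In pairs of groups the differences in mean level were -1.24 points for the combination against Vehicle, -0.0464 for AG120 against Vehicle and -1.40 for AZA against Vehicle. The combination differed from AG120 by -1.19 points and from AZA by 0.162 points. With 2 libraries against 2 the smallest exact permutation p is 0.333, so no pair could pass. The combination libraries and the AZA libraries were all below both Vehicle libraries, while the other 3 pairs overlapped. Without Vehicle replicate 2 the differences were -0.595 points for the combination and -0.757 points for AZA, each against Vehicle.

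Tiles of the other classes were set beside them. Intergenic tiles nearer to genes averaged 74.6% in AZA and 76.5% in Vehicle, and gene-body tiles 77.1% in AZA and 79.1% in Vehicle. The gap between the distal tiles and those nearer to genes was 4.01 points with AZA and 3.95 without it (difference 0.0588, 95% interval -1.07 to 1.48). For gene-body tiles the gap was 1.48 points with AZA and 1.37 without it (difference 0.108, -0.975 to 1.63). With AG120 the gap to intergenic tiles nearer to genes was 3.71 points, against 4.24 without it (difference -0.531, -1.79 to 0.432). The gap to gene-body tiles was 1.17 points with AG120 and 1.69 without it (difference -0.520, -2.34 to 0.376). Without AZA replicate 2 these AG120 differences were -0.278 and -0.133 points. None of these 4 passed: the exact permutation p lay between 0.171 and 0.914 and the adjusted values were 0.686 or higher. When every read counted once in place of every tile, the AG120 difference was -1.92 points for the first gap and -2.71 points for the second (exact permutation p = 0.0286 each, 0.0571 after adjustment over the 4 tests). At positions read in every library these differences were -1.33 and -1.50 points, with the same values of p.

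The distal tiles were more methylated, on average, than the tiles most like them. Within a library they stood 3.98 ± 0.535 points above intergenic tiles 5 to 50 kb from genes (SD over libraries; range 3.21 to 5.01; higher in 8 of 8 libraries, two-sided exact sign permutation p = 0.0078, the smallest that 8 libraries can give). They stood 1.43 ± 0.657 points above gene-body tiles (range 0.509 to 2.85; 8 of 8 libraries, exact p = 0.0078). All other autosomal tiles together, which include both of these classes and CpG-rich gene ends, were 33.5 points lower.

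The sign of this gap differed with 2 features of the tiles. The first was the number of weakly methylated tiles. Of the distal tiles, 47 (2.34%) had a mean level under 20%, against 8.27% of intergenic tiles nearer to genes and 7.24% of gene-body tiles. Among tiles with a mean of 20% or more the distal class was at 81.5%, against 82.0% nearer to genes and 83.9% in gene bodies. There the gap was -0.500 points to tiles nearer to genes and -2.44 points to gene bodies. This restriction was added after the data had been seen and selects tiles by the level itself, so both values are descriptions. The middle of the distribution differed as well: 33.4% of distal tiles had a mean between 20 and 80%, against 28.4% nearer to genes and 24.4% in gene bodies.

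**Figure D2:**
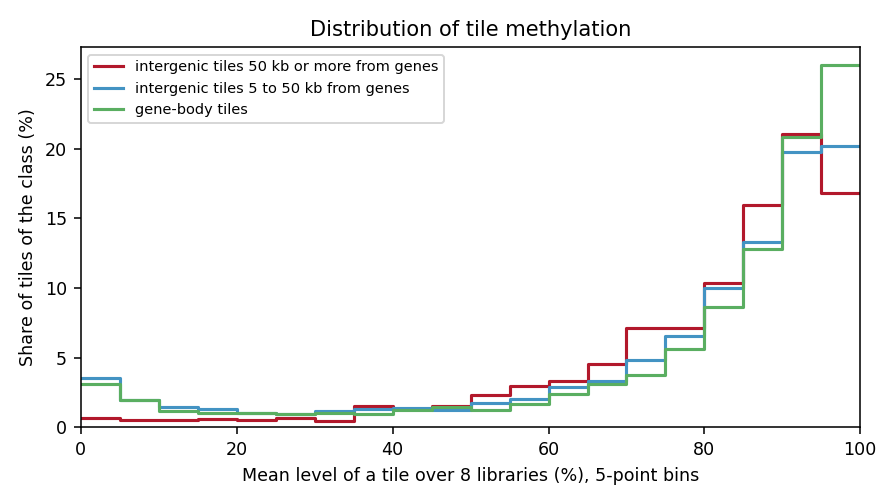
Share of the tiles of each class (y axis, %) by the tile's mean level over 8 libraries (x axis, %, in bins of 5 points), with 1 line for each class. The distal intergenic line is the lowest of the 3 under 20% and over 95%, and the highest between 50 and 95%.

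The second feature was the number of covered positions. Distal tiles with 3 to 5 positions averaged 73.3%, those with 6 to 10 positions 78.1%, and those with 11 to 15 positions 81.6%. The level was 82.7% at 16 to 20 positions, 84.5% at 21 to 25 and 85.4% at 26 to 30. Neither comparison class had this trend: intergenic tiles nearer to genes were at 76.1% with 3 to 5 positions and 73.6% with 26 to 30, and gene-body tiles at 77.8% and 76.5%. Median reads per tile moved with the number of positions, from 2726 at 3 to 5 positions to 6725 at 21 to 30, and the part of depth in the trend was not tested.

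The gap to the other classes changed sign along this axis. With 3 to 5 positions the distal tiles differed from intergenic tiles nearer to genes by -2.81 ± 0.968 points and from gene-body tiles by -4.49 ± 1.24 points, below them in 8 of 8 libraries each. With 26 to 30 positions they lay 11.8 ± 1.70 and 8.92 ± 1.27 points above them, again in 8 of 8 libraries. All 12 comparisons (6 bins, 2 classes) passed an exact sign permutation test after Benjamini-Hochberg adjustment, with an adjusted p of 0.0094 in 10 of them, 0.0170 for gene bodies at 6 to 10 positions and 0.0312 for tiles nearer to genes at 6 to 10 positions. With all classes kept to 3 to 15 positions, a setting added after the data had been seen, the distal tiles were 1.51 points above tiles nearer to genes (exact p = 0.0078) and differed from gene bodies by -1.06 points (exact p = 0.0156).

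**Figure D3:**
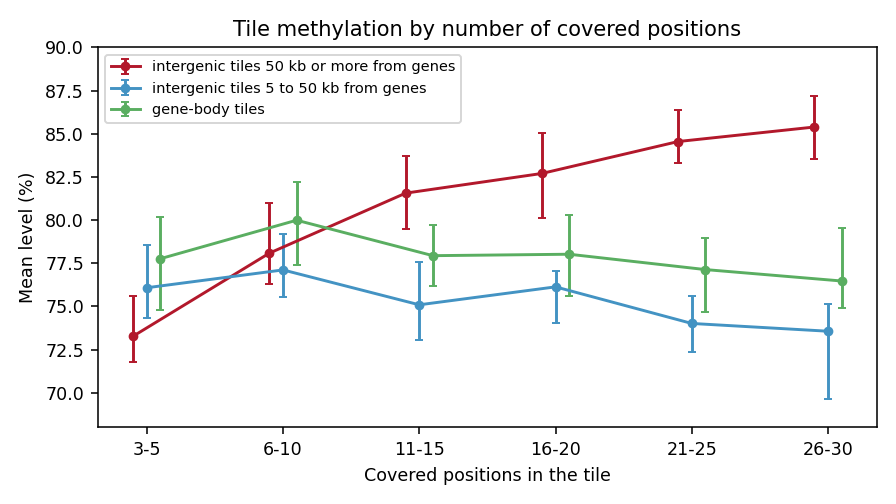
Mean level of tiles (y axis, %) by the number of covered positions in the tile (x axis, 6 bins), with 1 line for each class; points are means over 8 libraries and bars run from the lowest to the highest library. The distal intergenic line climbs from 73.3 to 85.4% and crosses both other lines, which stay between 73.6 and 79.99%.

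Weakly methylated tiles became rarer with distance from genes. The share with a mean under 20% was 12.1% of intergenic tiles 5 to 10 kb from a gene, 8.06% at 10 to 20 kb and 5.87% at 20 to 50 kb. Among the distal tiles it was 3.62% (33 of 911) at 50 to 100 kb, 1.84% (10 of 544) at 100 to 200 kb, 0.741% (3 of 405) at 200 to 500 kb and 0.667% (1 of 150) beyond 500 kb. The mean level differed less, with 79.1%, 79.7%, 81.4% and 79.9% in these 4 ranges of the distal tiles. Tiles are not replicates of a condition, and this series over distance is a description.

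**Figure D4:**
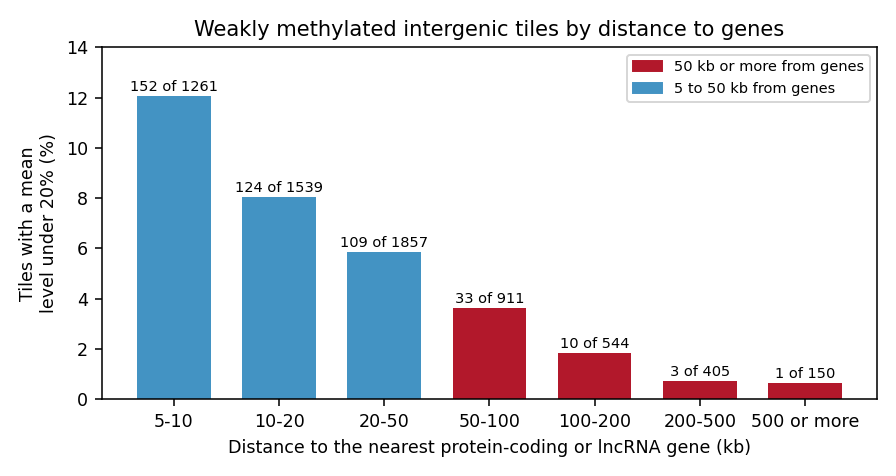
Share of intergenic tiles with a mean level under 20% (y axis, %) by distance to the nearest gene (x axis, kb); the colour marks tiles 50 kb or more from genes and those nearer, and the label over each bar gives the tiles counted. The share is 12.1% at 5 to 10 kb and 0.667% beyond 500 kb.

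The limits of the definition did not mark a step in level. Tiles 50 to 60 kb from a gene, just inside, averaged 77.8%, and tiles 40 to 50 kb away 77.9%. Tiles with 28 to 30 positions averaged 84.9%, and those with 31 to 33 positions 84.2%. Tiles whose least read library had 20 to 24 reads averaged 79.2%, and those with 15 to 19 reads 78.7%.

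The weakly methylated distal tiles were few and mostly not fully unmethylated. Of the 47, 11 were under 20% in every library, 36 exceeded 20% in at least 1 library and 9 exceeded 50% in at least 1. The lowest mean, 0.0396%, belonged to the tile at 126665001 to 126666000 on chromosome 8, which lies 62290 bp from Gm31603. It had no methylated read in 6 libraries. Its least read library, AG120 replicate 2, had 90 reads, which allows a level of up to 3.33%, while AG120 replicate 1 was at 0.187% and Vehicle replicate 1 at 0.130%. The second, on chromosome 13 at 20038001 to 20039000, lies 51506 bp from Elmo1, a gene for a regulator of Rac signalling and cell engulfment. Its mean was 0.0895% over 15939 reads, and its highest library was AZA replicate 2 at 0.378%. AG120 replicate 2 had no methylated read there among only 30 reads, which allows a level of up to 10%. These 2 tiles were unmethylated in all 4 groups within the limits of the reads.

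The other 3 of the lowest 5 each exceeded 4% in a single library. The tile on chromosome 2 at 116976001 to 116977000 (59260 bp from Gm46758) was at most 0.328% in the 6 treated libraries, and at 5.77% in Vehicle replicate 1 and 0% in replicate 2. A further weakly methylated tile, at 116972001 to 116973000 on the same chromosome, with a mean of 1.99%, lay 4000 bp from it. On chromosome 13 the tile at 116712001 to 116713000 (89094 bp from 4930435F18Rik) was at 1.53% in combination replicate 1 and 4.69% in AG120 replicate 1, with no methylated read elsewhere. Vehicle replicate 2 had only 30 reads there, which allows a level of up to 10%. All methylated reads of AG120 replicate 1 lay at the cytosine at 116712001, which neither Vehicle library read. The last, on chromosome 11 at 44204001 to 44205000 (69013 bp from Gm12153), had no methylated read in 7 libraries, of which combination replicate 2 had only 26 reads (a level of up to 11.5%), and was at 8.04% in Vehicle replicate 2.

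At the other end, 372 distal tiles (18.5%) were over 80% in all 8 libraries, and in 13 every read of every library was methylated. The 3 tiles with the most reads had high mean levels, though the third was at 79.5% in combination replicate 2. The deepest, on chromosome 13 at 3384001 to 3385000 (93231 bp from 2810429I04Rik; 58233 reads), averaged 96.0%. The next, on chromosome 14 at 37879001 to 37880000, overlaps the pseudogene Gm5204 and averaged 92.7% over 53411 reads. The third, on chromosome 15 at 103829001 to 103830000 (65854 bp from Mucl2), averaged 88.3% over 43733 reads. Their ranges over the libraries were 14.1, 15.3 and 14.6 points, below the median of all distal tiles.

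Single distal tiles varied widely between libraries. The median range of a tile's level over the 8 libraries was 39.7 points, against 37.4 in intergenic tiles nearer to genes and 33.8 in gene bodies, and 685 distal tiles (34.1%) spanned over 50 points. The median range was 53.8 points in tiles with 3 to 5 positions and 27.9 points in those with 21 to 30. Several tiles tied at a range of 100 points, among them the tile at 67556001 to 67557000 on chromosome 1 (187965 bp from Gm39658). It was at 1.20% and 100% in the 2 combination libraries, 33.3% and 80% with AG120, 0% and 100% with AZA, and 100% and 67.7% with Vehicle. None of its 8 positions was read in every library.

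Likeness between libraries over these tiles was set out for pairs within and between groups. Pearson's r across the 2010 tiles averaged 0.499 in the 4 pairs within a group (0.453 to 0.580) and 0.488 in the 24 pairs between groups (0.439 to 0.536). Mean absolute differences per tile were 17.1 points within and 17.3 points between groups. Restricted to positions read in every library, r averaged 0.558 for pairs within a group and 0.545 for the others. The tiles of a library share its depth and preparation, and these values are descriptions; the small differences between both kinds of pairs were not tested.

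The share of distal tiles standing at exactly 0 or 100% was 27.6% and 26.7% in the combination libraries, 26.4% and 23.3% with AG120, 23.1% and 19.95% with AZA, and 22.5% and 24.9% with Vehicle. It averaged 25.98% ± 1.87 with AG120 and 22.6% ± 2.04 without it, a difference of 3.38 points (exact permutation p = 0.0571, 0.114 adjusted over both drugs, with a 95% interval of -1.59 to 7.61). This did not pass the threshold. In intergenic tiles nearer to genes the share was 31.5% with AG120 and 26.9% without it (difference 4.62 points, exact permutation p = 0.0286), in gene bodies 36.5% and 32.2% (4.33 points, exact permutation p = 0.0857), and in all other autosomal tiles 32.3% and 23.2% (9.10 points, exact permutation p = 0.0286). Of the libraries with AG120, 3 read a smaller share of the positions of the distal tiles than any library without it, while AG120 replicate 2 read more than Vehicle replicate 2; the part of this share was not tested.

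Tests of single tiles asked whether a drug changed the balance of methylated and unmethylated reads. All 44190 tiles of the autosomes and X with at least 3 positions, 20 reads per library and both kinds of reads were fitted together, and 1997 of the 2010 distal tiles were among them (the other 13 had methylated reads only). With edgeR's quasi-likelihood test at a false discovery rate of 0.05, 0 distal tiles were called in each of the 5 pairs of groups, for each drug as a factor and for the interaction of the drugs, with a background of 0% of all tiles called in each of these 8. The smallest adjusted p of a distal tile was 1 in each.

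At an unadjusted p under 0.05 edgeR gave 51 distal tiles (2.55%) for the combination against Vehicle, where the background was 3.95% of all tiles. It gave 46 for AG120 against Vehicle (2.30%, background 2.84%) and 39 for AZA against Vehicle (1.95%, background 2.46%). The combination against AG120 gave 56 (2.80%, background 3.4%) and the combination against AZA 62 (3.10%, background 3.86%). For AG120 as a factor there were 46 (2.30%, background 3.4%), for AZA as a factor 38 (1.90%, background 2.65%) and for the interaction 50 (2.50%, background 2.7%). All 8 shares were at or below the background.

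Other tools gave other counts. limma on log2 ratios called 0 tiles in each contrast. edgeR's likelihood ratio test called 9, 1, 2, 20 and 18 distal tiles in the 5 pairs in the order above, where the backgrounds were 0.217, 0.0181, 0.0181, 0.665 and 0.726% of all tiles. For the AG120 factor, the AZA factor and the interaction it called 22, 13 and 16, with backgrounds of 0.928, 0.493 and 0.421%. DESeq2 called 15, 2, 8, 32 and 25 in the pairs, with backgrounds of 0.713, 0.17, 0.208, 1.28 and 1.24%, and 26, 23 and 23 in the others, with backgrounds of 1.48, 0.883 and 0.905%. As shares of the 1997 distal tiles tested, the likelihood ratio counts lay above the background in every contrast. The DESeq2 counts lay above it in most, and below it for AG120 against Vehicle and for the AG120 factor. These differences were not tested, and no statement here rests on these calls.

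In many tiles the groups did not overlap, about as often in distal tiles as in all tiles. The combination was above Vehicle in 288 distal tiles (14.4%, background 12.8%) and below it in 312 (15.6%, background 19.7%). AG120 was above Vehicle in 307 (15.4%, background 13.2%) and below it in 299 (14.97%, background 17.3%). AZA was above Vehicle in 268 (13.4%, background 12.3%) and below it in 341 (17.1%, background 18.6%). The combination was above AG120 in 266 (13.3%, background 12.6%) and below it in 299 (14.97%, background 15.2%). It was above AZA in 328 (16.4%, background 14.8%) and below it in 273 (13.7%, background 16.1%).

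With 4 libraries against 4 such tiles were rare. All libraries with AG120 were above all without it in 33 distal tiles (1.65%, background 1.45%) and below them in 25 (1.25%, background 2.04%). For AZA the counts were 20 above (1.0015%, background 0.819%) and 25 below (1.25%, background 1.51%). The median difference of the distal tiles was -0.03 points for the combination against Vehicle (all tiles -0.10), 0 for AG120 against Vehicle (all tiles -0.02) and -0.64 for AZA against Vehicle (all tiles -0.28). For AZA as a factor it was -1.19 points, against -0.30 over all tiles, and for AG120 as a factor 0.02 against 0.04. Of all other autosomal tiles 43.0% had a mean level under 20%, against 2.34% of distal tiles. In mean level the AZA difference was -1.29 points in distal tiles, -1.35 in intergenic tiles nearer to genes and -1.40 in gene-body tiles. The comparisons against Vehicle share the Vehicle libraries.

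The tiles described next had the smallest p among distal tiles whose groups did not overlap, and none of them passed the threshold (edgeR adjusted p = 1 for each). At 47871001 to 47872000 on chromosome 16, 185638 bp from Gm52257, the level was 100% in both combination libraries, 73.9% and 65.3% with AG120, 51.4% and 51.9% with AZA, and 28.1% and 59.96% with Vehicle. The combination was above all other libraries here, by 56.0 points over Vehicle and 48.4 points over AZA. At the 2 positions read in every library the pattern was the same, with 100% in both combination libraries, 78.0% and 72.6% with AG120, 50.3% and 52.8% with AZA, and 27.7% and 55.0% with Vehicle. Of these 2 cytosines, that at 47871060, picked out after its values were seen, differed more between the groups. It was at 100% in both combination libraries, 56.1% and 46.3% with AG120, 0.712% and 5.93% with AZA, and 11.8% and 10.1% with Vehicle. The other strand of the same site, at 47871061, had another order. There AG120 was at 0% on 54 and 68 reads and Vehicle at 100% on 4 and 30 reads. AZA was at 100% and 0% on 13 and 4 reads, and the combination libraries had no reads.

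A tile at 7323001 to 7324000 on chromosome 10, 110763 bp from Cnksr3, went the other way. It had 0 methylated reads among 43 and 282 reads in the combination libraries, which allows up to 6.98% and 1.06%. It was at 77.9% and 94.9% with AG120, 70.2% and 57.8% with AZA, and 88.7% and 88.4% with Vehicle. The combination libraries read 1 and 2 of its 4 positions and the other libraries all 4, so that no position was shared by all. The deepest tile, near 2810429I04Rik, was also among these: it was at 90.3% and 85.8% in the combination, 98.6% and 98.2% with AG120, 99.5% and 95.6% with AZA, and 99.8% and 99.9% with Vehicle. Its difference from Vehicle, -11.8 points, was -12.8 points at the 4 positions shared by all libraries.

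Some tiles set Vehicle apart from all 3 treatments. At 70352001 to 70353000 on chromosome 13, 61918 bp from Gm36216, the level was 92.4% and 47.2% in the combination, 99.4% and 100% with AG120, 96.8% and 98.4% with AZA, and 1.49% and 0.472% with Vehicle. At its 1 shared position all 6 treated libraries were at 100%, AG120 replicate 2 on a single read, and the Vehicle libraries at 1.52% and 0.495% on 66 and 202 reads. In the opposite direction, the tile at 82507001 to 82508000 on chromosome 2, which overlaps the pseudogene Gm13675, was at 54.3% and 77.8% in the combination, 66.7% and 87.6% with AG120, and 70.7% and 80.2% with AZA, against 100% in both Vehicle libraries. The AG120 difference there, -22.9 points, was -12.4 points without AG120 replicate 1, which had 24 reads in this tile. No position of the tile was read in every library. The tile at 152990001 to 152991000 on chromosome 4 (130707 bp from Gm30911) was at 63.1% and 34.1% in the combination, 36.9% and 61.3% with AG120, and 15.3% and 0% with AZA, again against 100% in both Vehicle libraries. At its single shared position the combination libraries were at 2.13% and 87.1%, the AG120 libraries at 1.01% and 100%, and the AZA libraries at 82.8% and 0%, so libraries of 1 group stood at opposite ends.

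The tile at 115959001 to 115960000 on chromosome 13, 338269 bp from Isl1 (a LIM homeobox transcription factor gene), was at 82.6% and 72.5% in the combination, 100% and 99.9% with AG120, 88.9% and 100% with AZA, and 54.2% and 74.2% with Vehicle. AG120 exceeded Vehicle by 35.8 points. At its 5 shared positions the AG120 libraries were at 100% and 80%, the second on 5 reads, and the Vehicle libraries at 77.5% and 71.1%. A pair of tiles separated the combination from AG120. At 93323001 to 93324000 on chromosome 9 the combination was at 100% in both libraries and AG120 at 87.9% and 87.2%. At 79923001 to 79924000 on chromosome 1, overlapping the pseudogene Gm5529 and 64335 bp from Serpine2, the combination was at 100% in both libraries and AG120 at 51.4% and 75%. The difference of 36.8 points was the same at its 4 shared positions, whereas at the 6 shared positions of the tile on chromosome 9 it was 4.75 points in place of 12.4. In the tile on chromosome 1 the AG120 libraries differed by position. They were at 8.28% and 100% at 79923384, 48.6% and 0% at 79923414, and 48.7% and 100% at 79923454.

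Between the combination and AZA the smallest p, beside that of the tile near Gm52257, were those of the tiles at 6798001 to 6799000 on chromosome 11 and 109194001 to 109195000 on chromosome 14. The first, 77963 bp from Gm11981, was at 75.3% and 93.2% in the combination and at 100% in both AZA libraries, a difference of -15.7 points that was -24.7 without combination replicate 2 and -6.76 without combination replicate 1. At its 4 shared positions the combination libraries were at 97.7% and 97.8%. Both AZA libraries were at 100% there, on 8 and 20 reads. The second, 133710 bp from Gm30216, was at 100% in both combination libraries and at 83.3% and 91.2% with AZA.

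**Figure D5:**
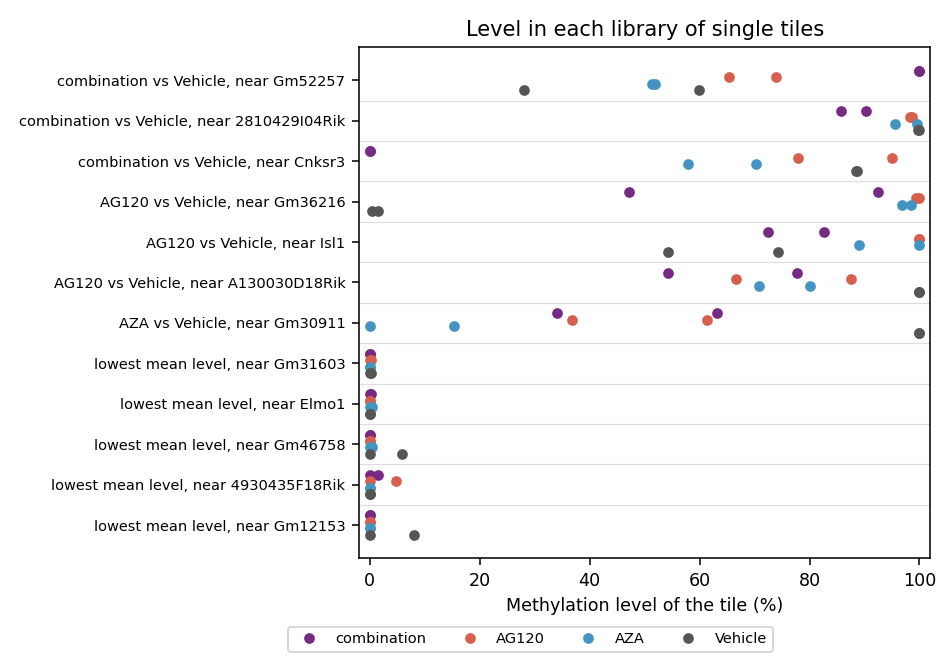
Level of single distal intergenic tiles (x axis, %) in each library; every point is a library, colours mark the 4 groups, and each row is a tile with the comparison that chose it and its nearest gene. The upper 7 rows are tiles with the smallest p in a comparison against Vehicle, none past the threshold, and the lower 5 are the tiles with the lowest mean, which stay under 9% in every library.

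For AG120 as a factor, the tile at 5538001 to 5539000 on chromosome 16 (53046 bp from Gm41416) was at 100% in all 4 libraries with AG120. Without AG120 it was at 1.65% and 0% with AZA alone and at 38.5% and 0% with Vehicle. The difference was 89.95 points, on 36 to 243 reads a library, and no position was shared by all libraries. The tiles at 85514001 to 85515000 on chromosome 5 and at 84418001 to 84419000 on chromosome 9 were at 99.9 to 100% with AG120. Without it they were at 69.5 to 97.2% and at 72.0 to 94.6%. At the 6 shared positions of the tile on chromosome 5 the difference was 12.01 points, against 10.5 over all its positions. Without AZA replicate 2 the difference over all positions was 3.85 points. At the single shared position of the tile on chromosome 9 all 8 libraries were at 100%. However, replicate 1 of the combination, AG120, AZA and Vehicle had only 1, 2, 4 and 1 reads there.

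For AZA as a factor, a tile at 34290001 to 34291000 on chromosome 8 (63850 bp from Gm29243) was lower with the drug, at 65.8% and 68% in the combination and 80% and 80.3% with AZA alone. It was at 100% and 99.9% with AG120 alone and at 100% in both Vehicle libraries, a difference of -26.4 points. None of its positions was read in every library, and combination replicate 1 and Vehicle replicate 1 had none in common. Another pair of tiles was higher with AZA. At 92444001 to 92445000 on chromosome 8, 82544 bp from the homeobox gene Irx5, the 4 libraries with AZA were at 98.8 to 100% and the 4 without it at 71.7 to 80.2%. At its 1 shared position 7 libraries were at 100%, combination replicate 1 on 6 reads, and Vehicle replicate 2 at 65.25%. At 98632001 to 98633000 on chromosome 6 (79896 bp from 4930595L18Rik) they were at 99.5 to 100% with AZA and at 54.0 to 96.7% without it. This tile had no position that every library read. Combination replicate 1 and AZA replicate 2 read none of the positions that the Vehicle libraries read.

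The 3 tiles farthest from any gene differed among themselves. The farthest, at 79688001 to 79689000 on chromosome 5, lay 1330084 bp from Adgrl3, the gene of an adhesion G protein-coupled receptor. It was at 70.6% and 63.5% in the combination, 74.4% and 100% with AG120, 100% and 81.5% with AZA, and 16.8% and 59.7% with Vehicle. The tile at 43084001 to 43085000 on chromosome 3, 1280693 bp from D3Ertd751e, averaged 87.6%. The third, in the same gene-free stretch of chromosome 5 at 79814001 to 79815000, averaged 92.9%.

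Several gene-free stretches held many of the tiles. The 4 with the most, 11 each, had mean levels of 69.3% (chromosome 1, 101280207 to 104304698), 71.1% (chromosome 15, 13306976 to 15778113), 74.5% (chromosome 3, 41803308 to 45280438) and 65.8% (chromosome 8, 8755165 to 9125411). All were below the mean of the distal tiles, though the stretches were picked for their number of tiles and not tested. On chromosome 8 the mean of the 11 tiles ran from 56.1 to 85.2% between libraries, and the group means were 67.2% in the combination, 70.7% in AG120, 57.9% in AZA and 67.5% in Vehicle.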

How the data were processed

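The table deposited by the authors gives counts of reads that called each cytosine methylated or unmethylated in each of 8 libraries, raw and not normalized per the file headers; per the labels' protocols it came from a commercial RRBS kit with spike-in DNA, which was not used here. Tools named in the submitters' processing notes, without roles, were Bismark 0.22.3 and Trim Galore 0.4.4, besides edgeR 3.32, R 4.0.2, SAMtools 1.4.1 and bcl2fastq 2.17.1.14, and the build named was mm10. Whether reads were deduplicated, and the conversion rate, is not given in the sources used here. If PCR copies were kept, counts overstate the number of molecules. All columns matched a library label, and 0 columns of sample values were left unused.

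Reads of each kind were added up within 1000-bp tiles, and genes came from a RefSeq table (GRCm38.p6, the coordinates of mm10; 34631 intervals of protein-coding and lncRNA genes, without strand). The members and lists were chosen with earlier results of these data known. A mean level is the unweighted mean over tiles. Drug factors were compared by two-sided exact permutation tests over 70 assignments of 4 libraries against 4, with 95% intervals from the same permutations, and classes by exact sign permutation tests (256 assignments). Methylated and unmethylated counts of 44190 tiles were fitted with edgeR 4.0.16 (R 4.3.3; a term per library, a methylation term per group, robust quasi-likelihood F-test, false discovery rate 0.05), after tests on simulated data. Alternatives were edgeR's likelihood ratio test, limma 3.58.1 (pseudocount 2), DESeq2 1.42.0 (size factors fixed), other read, position and distance limits, a grid shifted by 500 bp and leaving out each library. Other steps used Python 3.11.15 with numpy 2.4.6, pandas 2.3.3, scipy 1.17.1 and matplotlib 3.10.9.

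Tiles were named by a rule. It took, in each pair of groups and for each drug factor, the 3 distal tiles with the smallest p among those with groups that did not overlap (none passed the threshold), the 5 with the lowest mean, the 3 with the largest range, the 3 with the most reads and the 3 farthest from a gene. An upper limit for a count of 0 is 3 reads of the library's total in the tile.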

Additional observations from a re-analysis of the deposited data

Results flagged for a closer look

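In some of the named tiles 1 of the 4 libraries with or without a drug stood apart from the other 3 relative to the range of the 4, in several cases by under 1 point where the others were at 100%. Of 35 groups examined, 10 had such a library. Chance gives about 1 in 20 for evenly scattered values, a rate that cannot be applied here, since the tiles had been picked for small p and many values sit at 100%. At the tile near Gm35251 on chromosome 5, AG120 replicate 1 was at 99.9% where the other libraries with AG120 were at 100%, and AZA replicate 2, at 69.5%, was the lowest both of the libraries without AG120 and of those with AZA. Near Gm41416 on chromosome 16, Vehicle replicate 1 was at 38.5%, above the other libraries without AG120. Near Gm39388 on chromosome 9, AG120 replicate 2 was at 99.9%, and near Gm29243 on chromosome 8 AG120 replicate 2 was also at 99.9%, each beside 100% in the others of its set. Near Irx5, combination replicate 2 was at 98.8% where the other libraries with AZA were at 100%. Near 4930595L18Rik on chromosome 6, combination replicate 2 was at 99.5% among the libraries with AZA, Vehicle replicate 2 at 60% among those without AG120, and Vehicle replicate 1 at 96.7% among those without AZA.

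In other named tiles the effect of 1 drug had opposite directions with and without the other drug, with groups that did not overlap. Near Gm36216 the AG120 difference was -27.8 points with AZA and 98.7 points without it, a difference of -127 points between the 2 that is the same for AZA with and without AG120. Near Isl1 it was -17.0 points with AZA and 35.8 without it (-52.7 between them). Near Gm30911 it was 40.9 and -50.9 points (91.8), near 1700034K08Rik 5.78 and -8.37 points (14.2), near Serpine2 3.42 and -36.8 points (40.2), and near Gm30216 12.7 and -6.53 points (19.3). The edgeR interaction test gave an adjusted p of 1 for each. At positions read in every library the opposite directions without overlap were not found in any of the 6. Near Gm36216 and Serpine2 the combination and AZA libraries were then all at 100%. Near Isl1 the combination was at 82.6% and 94.5% and AZA at 88.9% and 100%, near Gm30911 the combination at 2.13% and 87.1% and AZA at 82.8% and 0%, and near 1700034K08Rik the combination at 100% in both and AZA at 100% and 94.2%. Near Gm30216 AG120 was at 93.4% and 83.3% and Vehicle at 88.5% and 99.2%.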

How the results depend on the processing

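The AG120 difference in mean level, 0.0579 points, changed sign with at least 50 reads (-0.0595), 100 kb from genes (-0.305), at positions read in every library (-0.742) and on the shifted grid (-0.0121), and ran from -0.675 to 0.505 with 1 library left out. The AZA difference kept its sign in every alternative and ran from -1.84 (without AG120 replicate 1, exact permutation p = 0.0286) to -0.766 (without AG120 replicate 2) with 1 library left out. AG120 against Vehicle turned positive with 10 reads (0.0640), 50 reads (0.0912), 3 to 15 positions (0.521), 20 kb from genes (0.0365) and pooled reads (0.397), and ran from -1.65 to 1.56 with 1 library left out. The combination against AZA turned negative with 50 reads (-0.210), at 100 kb (-0.269) and at shared positions (-0.729). With 1 library left out it ran from -0.239 to 0.563, the combination against AG120 from -2.79 to 0.416, the combination against Vehicle from -1.88 to -0.595 and AZA against Vehicle from -2.04 to -0.757 (both closest to 0 without Vehicle replicate 2). The gap to tiles nearer to genes was -0.500 points, and that to gene bodies -2.44, among tiles with a mean of 20% or more, and the gap to gene bodies was -1.06 with 3 to 15 positions. The AG120 difference of these gaps was -1.92 and -2.71 with pooled reads and -1.33 and -1.50 at shared positions, and ran from -0.719 to -0.278 and from -0.714 to -0.133 with 1 library left out (both closest to 0 without AZA replicate 2). The AZA difference of the gap to tiles nearer to genes was -0.113 with 10 reads, -0.336 with 50 reads, -0.595 pooled, -0.167 on the shifted grid, -0.113 at shared positions and -0.273 to 0.324 with 1 library left out. For gene bodies it was -0.362 with 50 reads, -1.51 pooled, -0.174 at shared positions and -0.348 to 0.432 with 1 library left out. Of 1997 distal tiles, the likelihood ratio test called 9, 1, 2, 20 and 18 in the 5 pairs. For the AG120 factor, the AZA factor and the interaction it called 22, 13 and 16. Its background was 0.0181 to 0.928% of all tiles. DESeq2 called 15, 2, 8, 32 and 25, and 26, 23 and 23, with a background of 0.17 to 1.48%. The cause of these changes was not tested. Another 276 values for these results showed no such change. Among them levels, gaps and shares kept their direction and side of the threshold, and counts of called distal tiles stayed at 0. All 115 values for single tiles kept their sign, and most of them came from leaving out 1 library. The tiles had been picked for groups that did not overlap, so leaving out a library could not change the sign.

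Same-numbered libraries of different groups did not deviate together (correlations of -0.0801 to 0.0224 across distal tiles). These values cannot show whether such libraries shared a preparation, since each library read only part of a tile's positions. With the replicate number as a block the AZA difference was -1.29 points (exact permutation p = 0.167), the AG120 difference 0.0579 (exact p = 1), and edgeR called 0 distal tiles in each contrast, as it did with 10 or 50 reads and with any library left out. The 20-read minimum, 2 libraries a group and the few positions read in all libraries limit what single tiles can show.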

Other observations

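The antigen receptor loci, where V, D and J segments are rearranged in lymphocytes, are listed in the gene table as loci that are neither protein-coding nor lncRNA genes, and 26 distal tiles lay in them. These were picked out after the values were seen and were not tested. The 13 tiles of Igk (immunoglobulin kappa) averaged 84.2%, the 8 of Igh (immunoglobulin heavy chain) 79.1% and the 5 of Tcra (T cell receptor alpha) 90.7%. Over the 26 tiles the mean was 84.0% in the combination, 86.04% in AG120, 80.8% in AZA and 84.7% in Vehicle, and the SD of the 2 AZA libraries was 6.23 points. None of them had a mean under 20%.

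A further 74 distal tiles overlapped pseudogenes outside these loci and averaged 84.7%, with 84.2% ± 0.465 in the combination, 84.4% ± 0.476 in AG120, 85.4% ± 0.502 in AZA and 84.7% ± 0.391 in Vehicle (SD, n = 2 each). Their median range over the libraries was 30.1 points. The 1905 tiles that overlapped no other feature averaged 79.6%, and their median range was 39.9 points.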
